A study of Mus musculus with 8 samples.

Results

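The cells of 1 control tumor organoid library were ordered along a luminal to basal axis, and the 97 cells at its luminal end were compared with the 94 cells at its basal end over all genes. The axis was the ratio R = log2((Krt8 + Krt18 + 1)/(Krt5 + Krt14 + 1)), taken from the unique molecular identifiers (UMIs) of each cell. The members were chosen by R as the top and bottom 25% of the cells of the library GR17, together 191 of its 369 kept cells and of the 1100 kept cells of 3 single-cell libraries. Because the keratin UMIs of these cells selected both ends, the keratins and all other gene levels of GR17 are given as a description, with no test.

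The organoids came from mammary tumors of MMTV-PyMT; MMTV-Cre; Ecadherin-mCFP mice, in which the MMTV promoter drives the polyoma middle T oncogene and Cre recombinase mainly in mammary epithelium and a fluorescent tag marks E-cadherin. All lines, controls included, carry these alleles. The SOX4KO lines had been made with CRISPR/Cas9 and are separate clones. The organoids had 4 days of growth from split single cells in medium with FGF2, the same for all groups. GR17 is the only control in the single-cell data, and GR18 and GR19 are SOX4KO. Bulk RNA-sequencing covered the control lines WT1 and WT3 and the SOX4KO lines H7, M4 and H4. Each line is a single library, and no label says that libraries came from separate cultures, so p-values measure the spread between these samples only.

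The mammary epithelium has an inner luminal layer, which holds hormone-sensing cells and milk-secreting cells with their progenitors, and an outer basal layer of contractile myoepithelial cells on the basement membrane. Luminal cells build their filaments mainly from keratins 8 and 18, and basal cells from keratins 5 and 14. PyMT tumors are largely luminal in character, and cells with basal keratins occur in them and in organoids grown from them.

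The promoter stretches of 4 genes are shown because these genes stood at opposite ends of the axis or, for Krt5, defined it. They are RefSeq windows on GRCm38.p6, each the 150 bases before the annotated start, written 5′ to 3′ on the strand of the gene. Capitals mark a match to the motif named, on either strand, and the motifs and stretches were picked after the gene levels had been seen. Csn1s1, an alpha casein of milk, lies at chr5:87666058-87666207 on the plus strand and held TTCNNNGAA, the letters bound by STAT factors, which carry the prolactin signal to casein genes. Foxa1, a pioneer factor of luminal cells, lies at chr12:57546112-57546261 on the minus strand and held TGTTTAC, the forkhead motif. Krt5 at chr15:101712906-101713055 and Col8a1, a network collagen, at chr16:57754738-57754887, both on the minus strand, held CAGGTG, an E-box that SNAIL-family repressors can bind. The Foxa1 stretch held CAGGTG as well, left in lower case because only its forkhead match is marked. The E-box thus does not set these stretches of the ends apart.
Csn1s1: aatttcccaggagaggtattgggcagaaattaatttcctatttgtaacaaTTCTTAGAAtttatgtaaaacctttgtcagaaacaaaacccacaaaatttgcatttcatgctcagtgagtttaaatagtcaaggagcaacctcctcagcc
Foxa1: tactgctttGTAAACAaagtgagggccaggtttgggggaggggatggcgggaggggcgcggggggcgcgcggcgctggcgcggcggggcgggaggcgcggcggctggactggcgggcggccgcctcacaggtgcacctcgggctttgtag
Krt5: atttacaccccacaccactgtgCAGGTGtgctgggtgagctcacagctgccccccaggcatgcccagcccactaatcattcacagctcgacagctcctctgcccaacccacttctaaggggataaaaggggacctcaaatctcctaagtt
Col8a1: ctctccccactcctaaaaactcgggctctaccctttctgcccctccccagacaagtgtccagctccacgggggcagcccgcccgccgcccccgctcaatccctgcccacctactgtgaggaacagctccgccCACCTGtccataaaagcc

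Over the 250 bases before the start, 5 motifs were searched on both strands. TTCNNNGAA was in 7.02% of 32851 windows, in 9 of 127 windows of luminal-end genes (7.09%) and in 5 of 132 windows of basal-end genes (3.79%). TGTTTAC was in 3.17% of all windows, 3.15% at the luminal end and 1.52% at the basal end. CAGGTG was in 17.2% of all windows, 21.3% at the luminal end and 18.9% at the basal end. TGANTCA, the AP-1 motif, was in 6.75%, 5.51% and 6.82%, and TATAAA in 12.4%, 10.2% and 9.09%. These windows covered 85 of the 125 luminal-end genes and 86 of the 124 basal-end genes that are defined below, and some genes have several windows. A match describes letters only.

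In GR17, R ran from -5.45 to 4.20 with a median of -1.93, so most control cells held more Krt5 and Krt14 UMIs than Krt8 and Krt18 UMIs. Cells of the luminal end had a median of 26 simple-keratin and 9 basal-keratin UMIs, and cells of the basal end 9 and 133.5. The basal keratins thus made most of the ratio. As a sum over cells, Krt5 stood at 159 CPM (counts per 1000000 UMIs) at the luminal end and 4351 CPM at the basal end, and Krt14 at 388 and 2743 CPM. Krt8 stood at 849 and 341 CPM, and Krt18 at 550 and 127 CPM. A Krt5 or Krt14 UMI was seen in 96 of the 97 luminal-end cells.

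**Figure D1:**
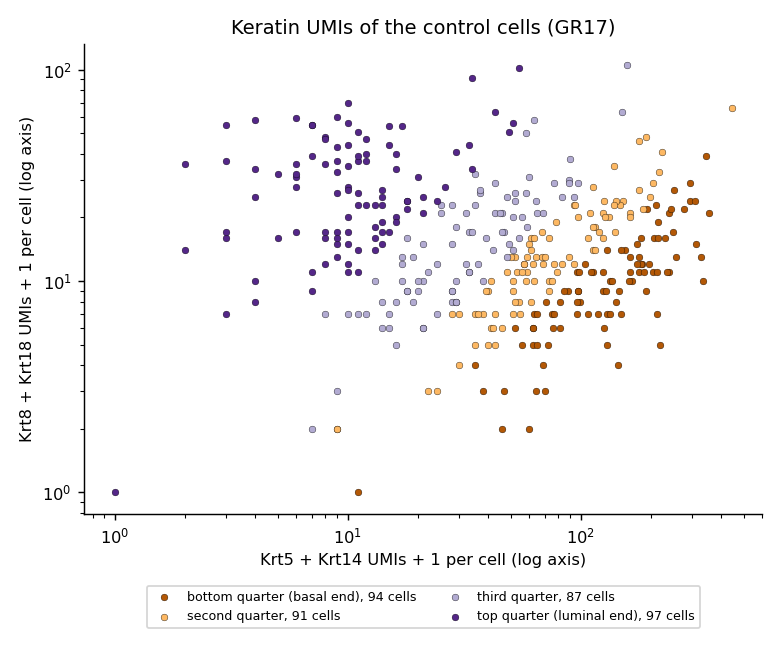
Krt8 + Krt18 UMIs against Krt5 + Krt14 UMIs for each of the 369 control cells, 1 added to each sum, both axes logarithmic, coloured by bin of R (25% of cells each). The ends differ more along the basal-keratin axis (medians of 9 and 133.5 UMIs) than along the simple-keratin axis (26 and 9), and cells fill the space between them.

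The cut at the luminal end fell at R = 0, where 5 cells tied and were kept, and the nearest cell outside it had R of -0.12 with 57 simple-keratin and 62 basal-keratin UMIs. One tied cell had no UMI of the 4 keratins at all. At the basal end the last cell inside had R of -3.12 and the first outside -3.10. The luminal end therefore reaches down to cells with as many basal as simple keratin UMIs, and 54 of the 369 cells had R of 1 or more and 28 had R of 2 or more.

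The depth behind the ends was similar. Luminal-end cells had a median of 20861 UMIs and basal-end cells 20313, the 4 bins of R with 25% of the cells each summed to 1795675 to 2088127 UMIs, and across cells of GR17 Pearson's r of R with log2 UMIs was 0.08, given as a description. Mitochondrial genes took 12.8% of UMIs at the luminal end and 10.3% at the basal end, and the S and G2M phase genes 0.93% and 1.10%. Their part in the results was not tested. Some values for the cells with a share of S and G2M UMIs at or below the library's median are given below as a description. All 3 libraries used the same 384 well barcodes by design, and each held 362 to 369 wells with at least 1000 UMIs.

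Of 6201 genes with at least 20 CPM on average over both ends, the 4 keratins left out, 125 (2.02%) were at least 2-fold higher at the luminal end and 124 (2.0%) at least 2-fold higher at the basal end. These are called luminal-end and basal-end genes below. Because the level filter is a mean of both ends, a gene near 0 at 1 end passes only by its level at the other. For such a gene the filter itself fixes its place past 2-fold. The median log2 ratio of all 6201 genes was -0.06, and 3626 of them stood lower at the luminal end. Intervals given with a ratio are exact 95% intervals of the ratio of UMI counts on the log2 scale, without the 1 CPM that was added for the ratio itself. They cover counting error only, since 1 library gives no spread between replicates.

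Milk and secretory genes led the luminal end. Csn3, which codes for kappa casein, stood at 341 CPM at the luminal end and 7.54 CPM at the basal end, a log2 ratio of 5.32 (interval 4.77 to 6.34). Csn1s1 stood at 174 and 3.02 CPM, a log2 ratio of 5.45, with 27.2% of its luminal-end UMIs in 1 cell. Neither gene was spread evenly, since 44 of 97 luminal-end cells held a Csn3 UMI and 37 a Csn1s1 UMI, against 13 and 5 of 94 basal-end cells. Trf, which codes for the iron carrier transferrin, was abundant at both ends, with 4820 CPM at the luminal and 1247 CPM at the basal end. Lcn2, an iron-sequestering lipocalin, stood at 5323 and 1748 CPM and was seen in all cells of both ends. Cd14, a receptor for bacterial lipopolysaccharide that marks luminal progenitors, stood at 807 and 87.5 CPM, a log2 ratio of 3.19 (2.98 to 3.44). Of the 8 members of the secretory progenitor list that could be compared, 7 were past 2-fold to the luminal end and all 8 were higher there, with a median log2 ratio of 1.91. Elf5, the transcription factor of the secretory lineage, was below the level filter and stood at 25.9 and 3.02 CPM. Csn2 and Wap had no UMI at either end.

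Hormone-sensing genes were also higher at the luminal end, with a wider spread among members. Foxa1 stood at 313 CPM at the luminal end and 97.6 CPM at the basal end, a log2 ratio of 1.67 (1.45 to 1.92). Hpgd, the enzyme that breaks down prostaglandins, stood at 77.6 and 4.02 CPM, a log2 ratio of 3.97 (3.26 to 5.51). Cited1, a transcriptional co-activator of estrogen receptor, had 100 UMIs at the luminal end and none at the basal end, which is at least 31.7-fold higher against a floor of 3 UMIs over the luminal-end or basal-end sum. Prlr, the prolactin receptor, stood at 86.2 and 24.6 CPM. In all, 4 of 7 members passed 2-fold to the luminal end and 1 stood lower there, with a median log2 ratio of 1.67. The median depended on the level filter. It was 0.98 for the 5 members of at least 50 CPM and also for the 11 members of at least 1 CPM. The defining receptors of this lineage were close to 0, with Esr1 at 0.96 and 0.50 CPM, Pgr at 0.48 CPM at the luminal end and 0 at the basal end, and Greb1 at 0 at both.

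Ly6d and Inhba, markers named with the rule, missed the 2-fold line. Ly6d, a surface protein of the LY6 family, stood at 114, 166, 245 and 225 CPM from the basal to the luminal bin, a log2 ratio of 0.98 (0.75 to 1.22). Its level was highest in the bin next to the luminal end, and 1 cell held 15.9% of its basal-end UMIs. Inhba, the activin A subunit, stood at 71.4, 76, 114 and 142 CPM, a log2 ratio of 0.98 (0.70 to 1.29). In the cells whose share of S and G2M UMIs was at or below the library's median, with the ends taken anew, the ratio of Ly6d was 0.18 and that of Inhba -0.01. After thinning each cell to 10000 UMIs with the ends kept, they were 1.91 and 1.29.

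Among the other leading luminal-end genes, Hp, which codes for the hemoglobin scavenger haptoglobin, stood at 286 CPM at the luminal end and 21.1 CPM at the basal end. Chi3l1, a chitinase-like secreted protein, stood at 321 and 65.9 CPM, and Csf3, the granulocyte growth factor, at 184 and 38.7 CPM. Clu (clusterin, 93.4 and 23.1 CPM), Xbp1 (a factor of the secretory pathway and the unfolded protein response, 674 and 151 CPM) and Ehf (an epithelial ETS factor, 144 and 38.7 CPM) had log2 ratios of 1.97, 2.15 and 1.87. St8sia6, Cyp1b1, Prelp, Inhbb and Chchd10 completed the 15 genes of largest ratio among those of at least 50 CPM on average, with log2 ratios between 1.79 and 2.40. S100a8, otherwise a gene of neutrophils, stood at 52.7 and 1.51 CPM, with 65.5% of its luminal-end UMIs in 1 cell.

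The simple-epithelial list held keratins and adhesion genes. Of its 12 comparable members 11 stood higher at the luminal end, with a median log2 ratio of 0.43. Cldn7, a tight junction claudin, stood at 89.6 CPM at the luminal end and 5.53 CPM at the basal end, and Cldn3 at 74.7 and 15.1 CPM. Krt19, a keratin of simple epithelia, stood at 50.8 and 2.01 CPM, a log2 ratio of 4.10 (3.26 to 6.56), with UMIs in 38 of 97 luminal-end and 2 of 94 basal-end cells. Those were the 3 of 12 members past 2-fold. Epcam (373 and 317 CPM) and Cdh1, E-cadherin (258 and 197 CPM), which define epithelial cells, were detected at both ends with log2 ratios of 0.23 and 0.39. Krt7, also a simple-epithelial keratin, ran the other way, with 356 and 493 CPM and a log2 ratio of -0.47 (-0.61 to -0.33).

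Of the leading basal-end genes, Id4 had the largest ratio among those above 50 CPM. Id4, an inhibitor of basic helix-loop-helix factors that is active in basal mammary cells, stood at 13.4 CPM at the luminal end and 231 CPM at the basal end, a log2 ratio of -4.01 (-4.71 to -3.56). Snai2, a zinc-finger repressor of the SNAIL family, stood at 14.4 and 128 CPM. Trp63, which codes for p63 and defines basal epithelial cells, stood at 17.7 and 68.9 CPM, a log2 ratio of -1.90. After thinning to 10000 UMIs, Id4 was detected in 12.2% of luminal-end and 77.6% of basal-end cells, and Trp63 in 15.6% and 48.2%. No cell type known to lack these genes was in the wells, so no background share could be set beside them.

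Sparc, a collagen-binding matricellular protein, was the most abundant of the leading basal-end genes, at 115 CPM at the luminal end and 934 CPM at the basal end (log2 ratio -3.01, interval -3.22 to -2.82). Col17a1, a hemidesmosome collagen, stood at 8.14 and 109 CPM. Serpinf1, an anti-angiogenic secreted serpin, stood at 10.1 and 131 CPM, a log2 ratio of -3.58 (-4.42 to -3.06). Sostdc1, an inhibitor of BMP and Wnt signals, stood at 16.3 and 183 CPM, and Mest, an imprinted hydrolase gene, at 10.5 and 126 CPM. Krt17, a keratin of basal and stressed epithelium, stood at 37.4 and 256 CPM, a log2 ratio of -2.74 (-3.14 to -2.43), with UMIs in 34 of 97 luminal-end and 85 of 94 basal-end cells. Fscn1, the actin-bundling fascin, Cmah, Pi15, Fbxo32, Sdpr, Ccnd2 (cyclin D2) and Fam101b had log2 ratios between -2.65 and -1.80. Col8a1, named here after its values were seen, had 1 UMI at the luminal end and 129 at the basal end, and Wnt10a, a Wnt ligand, 1 and 84.

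The basal end had basal keratins and p63 without the contractile program of mature myoepithelium. Acta2, Myh11, Cnn1, Actg2 and Oxtr had no UMI at the basal end, and Tagln stood at 0.50 CPM. The 7 comparable members of the myoepithelial list all stood lower at the luminal end, 4 of them past 2-fold, with a median log2 ratio of -1.52. The members past 2-fold were Sparc, Tpm2 (a tropomyosin), Cav1 (caveolin of membrane pits) and Postn (periostin, a matrix protein). In the basal keratin and p63 list, 4 of 10 members were past 2-fold (Col17a1, Krt17, Trp63 and Sfn), with a median of -0.79, while Itga6 (63.2 and 63.9 CPM), Dst (47.4 and 52.3 CPM) and Pkp1 (157 and 170 CPM), which anchor basal and stratified epithelium, were close to level. Krt15, a basal keratin below the level filter, ran to the luminal end with 11.5 and 1.01 CPM.

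Other pathways had members at both ends. Among Notch and Wnt genes, the receptor Notch3 (47.9 CPM at the luminal end, 3.52 CPM at the basal end) and the Notch target Hey1 (266 and 127 CPM) stood at the luminal end, and the ligands Jag2 (5.27 and 31.2 CPM) and Dll1 (5.75 and 26.2 CPM) were higher at the basal end, both under the level filter. Of the 10 comparable members of that list, Notch3 and Hey1 were past 2-fold to the luminal end and Wnt10a to the basal end. In the activin list the subunit gene Inhbb stood at the luminal end (266 and 73.4 CPM), and Fst, whose product follistatin binds activin, at the basal end (55.1 and 183 CPM), each the only one of 10 members past 2-fold in its direction. Of the basement membrane genes, the laminin chain gene Lama3 (27.3 and 97.1 CPM) was past 2-fold to the basal end and Lamb3 (90.5 and 117 CPM) was not. Of 8 comparable mesenchymal genes only Snai2 and Axl, a receptor tyrosine kinase, were past 2-fold, and Vim stood at 499 and 799 CPM. Vegfa and Pfkp were the 2 of 15 hypoxia and glycolysis genes past 2-fold, both to the basal end. At the luminal end 14 of the 15 stood lower, as did 3626 of all 6201 genes. Of 11 prostaglandin and lipid genes Hpgd and Ptgs2 (39.3 and 19.1 CPM), which makes prostaglandins, were past 2-fold to the luminal end. Of 14 immediate early and stress genes only Atf3 was past 2-fold, to the luminal end, and of 5 interferon and antigen genes none was, although all 5 stood lower there, with a median log2 ratio of -0.40.

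Cell cycle lists moved little. None of 39 S phase and 50 G2M genes passed 2-fold, with median log2 ratios of -0.22 and -0.31, and 30 and 41 of them stood lower at the luminal end. Among all 6201 genes 3626 stood lower there, with a median of -0.06. Sox4 stood at 113 CPM at the luminal end and 127 CPM at the basal end, a log2 ratio of -0.17 with an interval that includes 0 (-0.43 to 0.09). Fibroblast markers summed to 12.0 and 7.04 CPM, and endothelial and adipocyte markers to 3.83 and 3.52 CPM. Immune markers summed to 53.6 and 2.01 CPM, nearly all of it S100a8, and Ptprc, which defines leukocytes, had no UMI at either end.

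**Figure D2:**
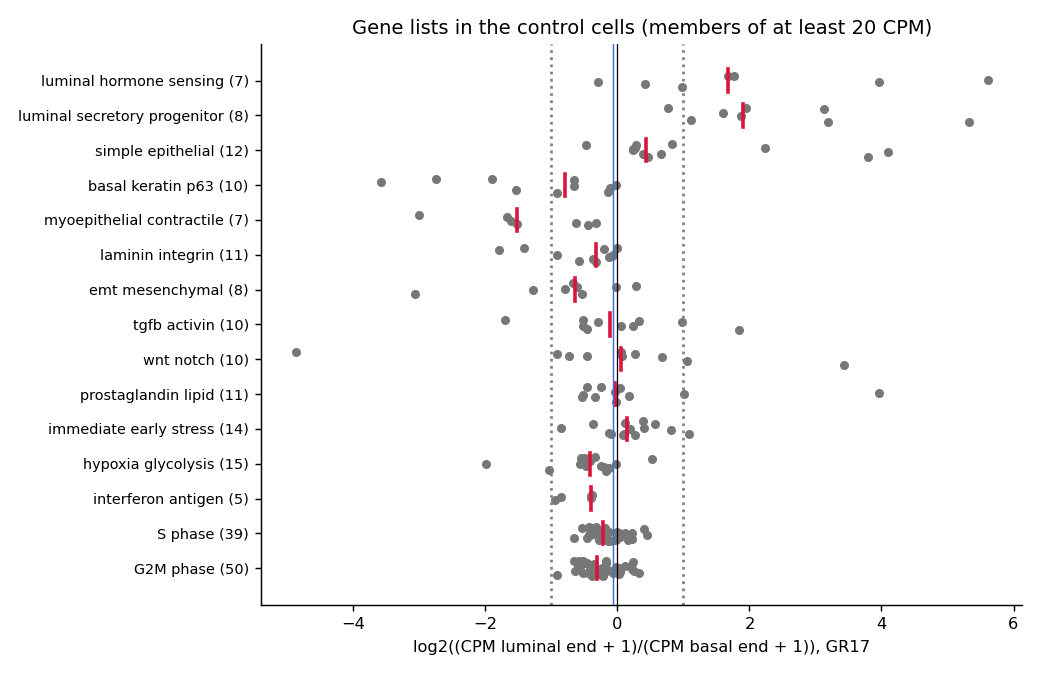
Log2 ratio of luminal over basal end in GR17 for each list member of at least 20 CPM (grey points; number in brackets), with the list median in red, the median of all genes (-0.06) in blue and 2-fold as dotted lines. Luminal lists have medians of 1.67 and 1.91, the myoepithelial list -1.52, and the cell cycle lists stay within 2-fold.

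Most genes of either end were ordered over the 4 bins of R. Of the 125 luminal-end genes 80 (64%) were ordered in the same direction over all 4 bins, where 5.97% of all genes were, and of the 124 basal-end genes 75 (60.5%), where 9.93% were. The outer bins, which the 2-fold line had used, fix part of that order. Csn3 stood at 7.54, 11.9, 17.8 and 341 CPM from the basal to the luminal bin, so most of its difference lay in the last step. Hpgd, by contrast, stood at 4.02, 24.4, 45.7 and 77.6 CPM, and Xbp1 at 151, 201, 363 and 674 CPM. The largest log2 step lay between the luminal bin and its neighbour for 92 of the 125 luminal-end genes (73.6%) and 108 of the 124 basal-end genes (87.1%). It lay there for 1057 of all 2575 genes higher at the luminal end and 1639 of all 3626 lower there, and this step was also the widest in R, whose bin medians were -3.74, -2.57, -1.15 and 1.09. Sparc stood at 934, 823, 533 and 115 CPM, and Serpinf1 at 131, 95.5, 55.7 and 10.1 CPM. Cmah was nearly level over 3 bins, at 281, 258 and 238 CPM, and stood at 57 CPM in the luminal bin.

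**Figure D3:**
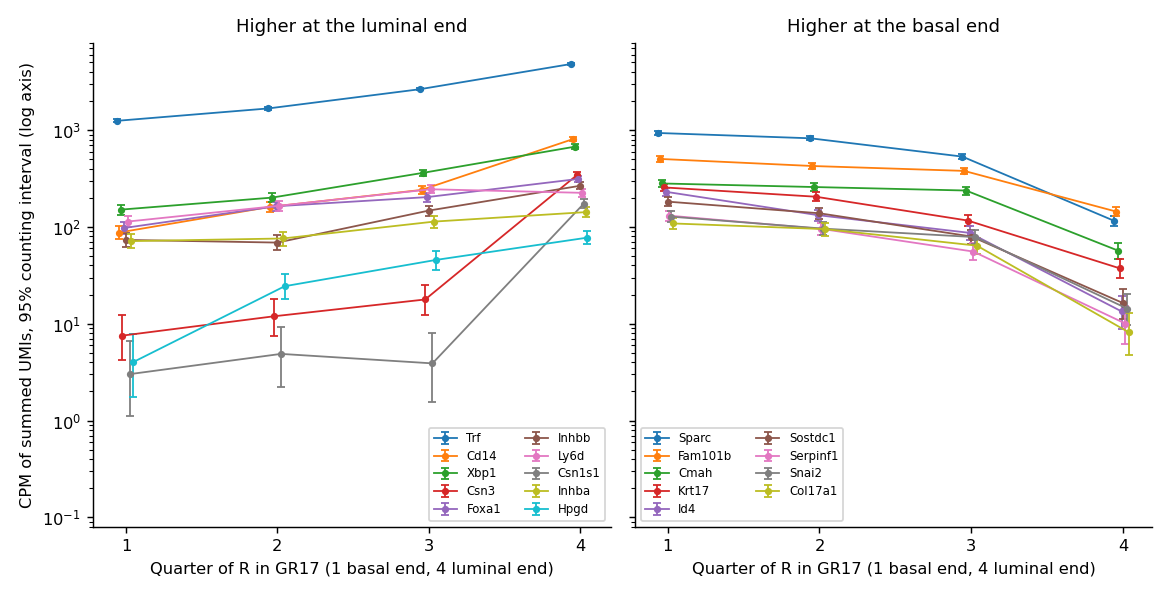
CPM of summed UMIs (logarithmic axis) in the 4 bins of R in GR17, from the basal end (1) to the luminal end (4), with exact 95% Poisson intervals, for 10 genes higher at the luminal end and 9 higher at the basal end. Csn3 and Csn1s1 lie low in 3 bins and high in the last, Hpgd climbs at each step, and the basal-end genes fall most at the last step.

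Detection of the marker genes varied among cells of the luminal end. Among its 90 cells with at least 10000 UMIs, each thinned to that number, 39 held a Csn3 UMI, 47 a Prlr UMI and 28 both, while 16 held a Cited1 UMI, 9 of them with Csn3. Hpgd was seen in 35 cells, 11 of them with Csn3, and 27 cells held neither. Foxa1 was seen in 76 of the 90 cells and Cd14 in 87. Of the 39 cells with Csn3, 6 also held a Krt17 UMI, 3 an Id4 UMI, 2 a Col17a1 UMI and 1 a Sostdc1 UMI. Of the 51 cells without Csn3, 14 held a Krt17 UMI, 8 an Id4 UMI, 3 a Col17a1 UMI and 9 a Sostdc1 UMI. Krt14 was still seen in 87.8% of the 90 cells and Krt5 in 77.8%. At 10000 UMIs per cell, genes of low level such as Prlr, Hpgd and Cited1 can be missed in a cell that holds them. Such misses were not separated from differences between cells. These are counts within 1 library, and RNA carried between wells was not measured.

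The SOX4KO libraries, which the rule did not use, held more cells on the luminal side of the GR17 cuts. The intervals lay apart from those of GR17 only for GR19. At or above the upper cut were 26.3% of GR17 cells by construction (exact binomial 95% interval 21.9 to 31.1). The share was 31.4% of GR18 cells (26.7 to 36.4) and 49.2% of GR19 cells (43.9 to 54.4). At or below the lower cut were 25.5% (21.1 to 30.2), 20.6% (16.6 to 25.1) and 6.91% (4.52 to 10.03). With 1 control library the difference between genotypes has no replicate check, and the SOX4KO libraries differed from each other by more than GR18 differed from GR17. In GR18 and GR19 r of R with log2 UMIs was 0.21 and 0.28, higher than the 0.08 of GR17.

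**Figure D4:**
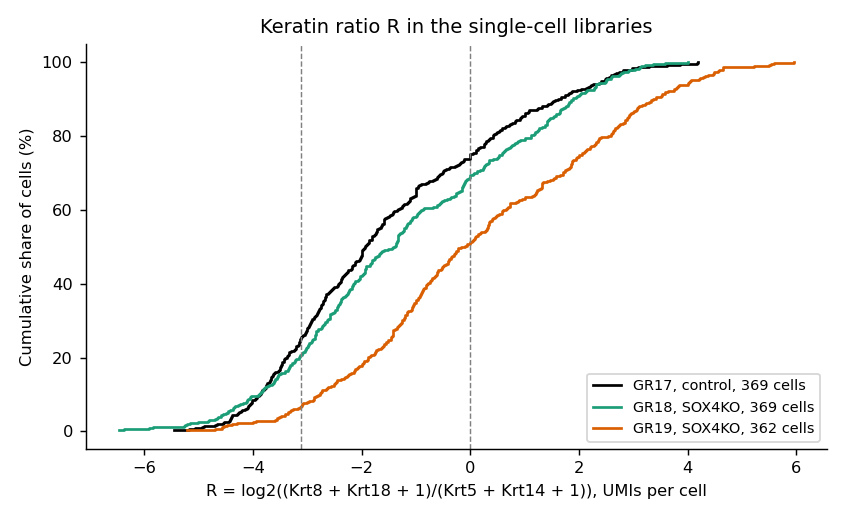
Cumulative share of cells (%) against R for the 369 cells of GR17, 369 of GR18 and 362 of GR19, with the lower and upper cuts of GR17 (-3.12 and 0) dashed. At the upper cut, 49.2% of GR19 cells lie on the luminal side against 26.3% in GR17 and 31.4% in GR18.

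The same split by R, taken within each SOX4KO library, gave most of these genes the same direction. Of the 125 luminal-end genes of GR17, 121 were higher at the luminal end in GR18 and 118 in GR19, and 89 and 84 were past 2-fold there, where 2.94% and 2.74% of all genes were. Of the 124 basal-end genes 123 ran to the basal end in each library, and 108 and 102 were past 2-fold, against 4.24% and 4.42% of all genes. In edgeR's quasi-likelihood test over the 2 libraries, with the library as a term and calls at an adjusted p under 0.1, 111 of 124 tested luminal-end genes were called higher at the luminal end, where 11.7% of all genes were, and 117 of 122 tested basal-end genes higher at the basal end, where 12.7% were. The test had 1 residual degree of freedom, so its spread was borrowed almost wholly from other genes. DESeq2 called 85 of 125 and 95 of 124, where it called 2.01% and 2.53% of all genes.

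Csn3 stood at 1003 CPM at the luminal end and 44 CPM at the basal end of GR18, and at 4005 and 210 CPM in GR19 (edgeR log2 fold change 4.39, SE 0.11, adjusted p = 1.65e-29). Serpinf1 stood at 17.6 and 447 CPM in GR18 and at 6.89 and 336 CPM in GR19, a log2 fold change of -4.97 (SE 0.17, adjusted p = 1.22e-24). Both genes thus had the direction of GR17 in each library, at higher levels at the end that held them. Foxa1 rose to the luminal end by 1.89 (SE 0.17, adjusted p = 5.15e-12) and Hpgd by 2.32 (SE 0.26, adjusted p = 2.41e-09). Krt17 was close to 0, with 0.43 and 11 CPM in GR18 and 0 and 4.42 CPM in GR19, and was too low for the edgeR test. Of the lists, where 11.7% of all genes were called to the luminal and 12.7% to the basal end, all 13 tested secretory genes were called to the luminal end and all 7 tested myoepithelial genes to the basal end. Hormone-sensing genes went both ways, with 4 of 8 called to the luminal end and 3 (Ly6d, Prom1 and Wnt4) to the basal end. Of 15 immediate early and stress genes, 12 were called to the luminal end.

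A few genes did not keep their direction. Ly6d stood at 29.6 CPM at the luminal end and 107 CPM at the basal end of GR18, and at 46.6 and 131 CPM in GR19, so it was higher at the basal end in both SOX4KO libraries and higher at the luminal end in GR17. Its log2 fold change there was -1.60 (SE 0.15, adjusted p = 5.26e-11 with edgeR and 6.26e-05 with DESeq2). Tnc, a matrix glycoprotein, was the 1 luminal-end gene called to the basal end, with 35.4 and 16.6 CPM in GR17 but 7.30 and 31.9 CPM in GR18 and 12.6 and 35.9 CPM in GR19 (adjusted p = 3.80e-06 with edgeR and 0.059 with DESeq2). Inhba had log2 ratios of 0.17 in GR18 and -1.16 in GR19 and was not called (adjusted p = 0.24). Cxcl5, a neutrophil chemokine named after its values were seen, had ratios of 1.44 in GR17, 3.07 in GR18 and -1.31 in GR19, and it was 1 of 25 genes, of 2366 called by edgeR, whose libraries ran in opposite directions. The difference between genotypes was not tested.

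In the bulk lines, basal-end genes were often higher in SOX4KO and luminal-end genes went both ways. Fewer cells of a kind and less RNA per cell cannot be told apart in bulk samples. edgeR called 51 of 122 tested basal-end genes higher in SOX4KO, where 4.10% of all genes were called higher, and 1 lower (Krt79, a keratin), where 2.17% of all genes were called lower. The median log2 fold change of basal-end genes was 0.83, against 0.01 for all genes. Of 118 tested luminal-end genes 8 were called higher and 9 lower, with a median of -0.10. The count of basal-end genes called higher rested on the controls. It fell without WT1 and without WT3, each with 1 control line left. The median log2 fold change of basal-end genes rested on the controls less, at 1.10 without WT1 and 0.71 without WT3. The higher bulk level of basal-end genes stood beside a lower share of cells at the basal end in the single-cell SOX4KO libraries, mainly in GR19.

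Serpinf1 had the largest difference among the named basal-end genes. It stood at 10.9 and 9.36 CPM in WT1 and WT3 and at 599, 464 and 340 CPM in H7, M4 and H4, with no overlap between groups, a log2 fold change of 5.53 (SE 0.33, adjusted p = 0.0012). It was called whichever line was left out. Cmah, an enzyme of sialic acid synthesis, stood at 52 and 15.9 CPM in the controls and 511, 183 and 635 CPM in SOX4KO, also apart (adjusted p = 0.030, and 0.20 without WT3). Snai2 stood at 21.3 ± 4.25 CPM (SD, n = 2) in controls and 50.7 ± 12.2 CPM (SD, n = 3) in SOX4KO (edgeR adjusted p = 0.049, 0.17 without WT1 and 0.46 without WT3). Sparc, at 1302 and 732 against 3763, 5342 and 1692 CPM, was called with an adjusted p of 0.089, a call lost without WT1, WT3, H7 or M4, and Col17a1, at 340 and 231 against 521, 559 and 411 CPM, was not (adjusted p = 0.12). Krt5 (191 and 47.8 against 410, 472 and 112 CPM) overlapped between groups and was not called (adjusted p = 0.31).

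Among the gene lists in bulk, where 4.10% of all genes were called higher and 2.17% lower, edgeR called 4 of 13 basal keratin and p63 genes higher in SOX4KO and 1 (Lgr6) lower. It called 4 of 9 myoepithelial genes and 4 of 16 laminin and integrin genes higher and none lower, and the medians of the 3 lists were 0.66, 0.63 and 0.97. It called 1 of 14 secretory genes higher and 1 lower, and 1 of 11 hormone-sensing genes higher and 2 lower. S phase genes (9 of 41) and G2M genes (14 of 52) were called lower, none higher, with medians of -0.72 and -0.73.

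At the luminal end, the casein gene Csn1s1 stood at 1.81 and 0.996 CPM in WT1 and WT3 and at 44.9, 22.7 and 34.7 CPM in H7, M4 and H4, a log2 fold change of 4.62 (SE 0.45, adjusted p = 0.0066), called whichever line was left out. Csn3 varied more, at 336 and 271 against 741, 165 and 2287 CPM, and was not called (adjusted p = 0.32). Trf rose as well, from 909 ± 82.6 CPM (SD, n = 2) to 2170 ± 258 CPM (SD, n = 3), with an edgeR adjusted p of 0.027 that became 0.24 without WT1 and 0.27 without WT3. Xbp1 fell, with 910 and 908 CPM in the controls and 312, 350 and 338 CPM in SOX4KO, a log2 fold change of -1.45 (SE 0.17, adjusted p = 0.011, and 0.11 without WT3). Ehf fell by 1.33 on the log2 scale (SE 0.19, adjusted p = 0.015, 0.12 without WT1 and 0.14 without WT3), and Cited1 by 1.44 (SE 0.33, adjusted p = 0.056). Foxa1 (142 ± 16.9 CPM, SD, n = 2, against 78.7 ± 21.9 CPM, SD, n = 3) was not called by edgeR (adjusted p = 0.11), nor was Ly6d (adjusted p = 0.81). Sox4 itself stood at 295 and 374 CPM in the controls and 199, 179 and 299 CPM in SOX4KO (adjusted p = 0.28), and transcript counts do not read a small edit of the coding sequence.

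**Figure D5:**
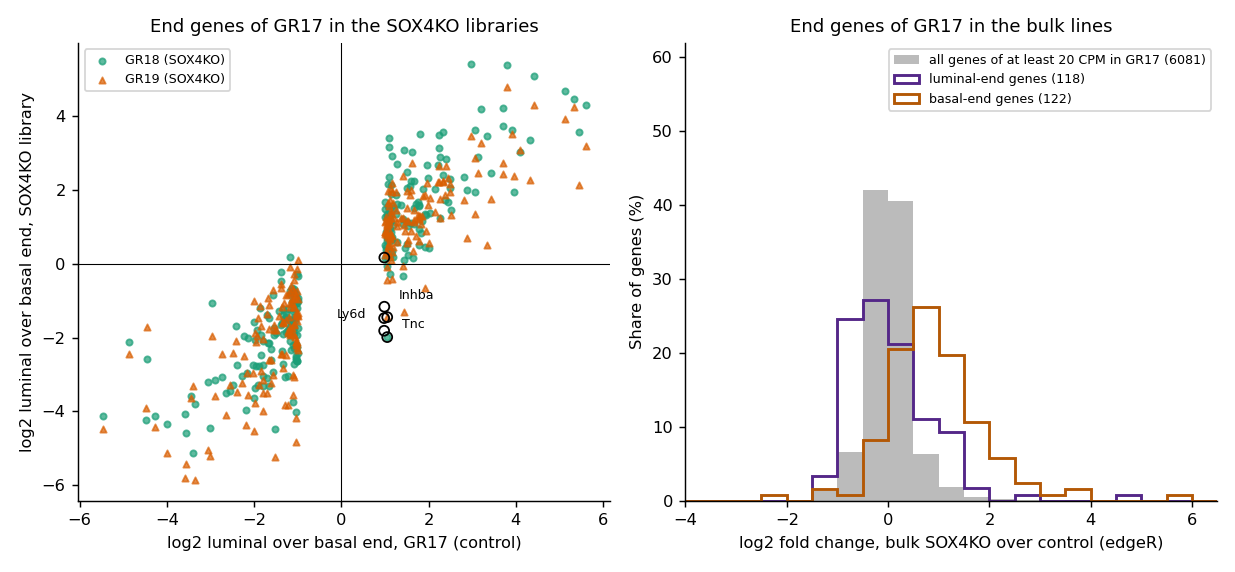
Left, log2 ratio of luminal over basal end in GR18 and GR19 against that in GR17 for the 125 luminal-end and 124 basal-end genes, with Ly6d, Tnc and Inhba circled (Ly6d and Inhba lie just under the 2-fold line). Right, share of genes (%) by bulk log2 fold change of SOX4KO over control for all 6081 genes of at least 20 CPM matched to bulk, 118 luminal-end and 122 basal-end genes, in bins of 0.5. The basal-end genes lie to the right, with a median of 0.83, and the luminal-end genes centre near 0.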

How the data were processed

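Per the labels and the study's methods, single cells were sorted into plates and sequenced by Single Cell Discoveries, and what the authors deposited are UMI counts for every well and, for bulk, read counts per gene made with HTSeq; the submitters' processing notes name STAR 2.4.2a and the builds NCBIM37 and mm9. No count had been normalized. Wells with at least 1000 UMIs outside the ERCC spikes were kept, and no doublet caller was run (8 wells of GR17 had over 2 times the median UMIs). UMIs were summed per bin of R (25% of the cells) and scaled to CPM. The ratio was log2((CPM + 1)/(CPM + 1)), for genes of at least 20 CPM on average. Intervals were exact. The ends of GR18 and GR19 and the bulk counts were tested with edgeR 4.0.16 (TMM scaling, low counts removed by filterByExpr, glmQLFTest) and DESeq2 1.42.0 under R 4.3.3. Both used Benjamini-Hochberg adjustment and calls under 0.1. The edgeR tests and the 2-fold line were also run on simulated counts, and DESeq2 was not. Bulk libraries held 3050323 to 4678497 reads on genes, and 71.6% to 83.9% of the reads tallied fell on no gene and were left out. Bulk identifiers were matched to 13857 symbols directly and 766 by synonym, and 527 genes had no match. Genes named were the 4 keratins, 5 rule markers, the 15 of largest ratio at each end above 50 CPM, list members, Sox4, and genes called the other way in SOX4KO. The members, gene lists and tests were chosen with earlier results of these data known.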

Additional observations from a re-analysis of the deposited data

Results flagged for a closer look

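For 5 of the 6201 genes compared, the ends of R ran one way in the control library GR17 and the other way in both SOX4KO libraries. The difference was at least 1.5-fold in each, with counting intervals that exclude 0 on the log2 scale. The difference between genotypes was not tested, and there is 1 control library. Ly6d had a log2 ratio of luminal over basal end of 0.98 in GR17, -1.81 in GR18 and -1.47 in GR19. In GR17, 1 cell held 15.9% of its basal-end UMIs, and its ratio was 0.18 in the less-cycling cells. Tnc had 1.05, -1.98 and -1.44, with 24.3% of its luminal-end UMIs in GR17 in 1 cell. Lbh, a transcription cofactor of basal mammary cells, had 0.67, -2.34 and -1.44. In GR17 Lbh stood at 60.8 CPM at the luminal and 37.7 CPM at the basal end and was not ordered over the bins. Its levels were lower in the SOX4KO libraries, under the level filter used for GR17. They were 1.72 and 12.7 CPM in GR18 (interval of the ratio -4.89 to -1.33) and 4.46 and 13.8 CPM in GR19. In the opposite direction, Thbs1, a matricellular thrombospondin, had -0.61, 0.92 and 1.0, and Ehd1, an endocytic recycling protein, -0.74, 0.70 and 0.71.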

How the results depend on the processing

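The counts of luminal-end and basal-end genes in GR17 (125 and 124) were 228 and 233 with the outer 10% of cells in place of 25%, 55 and 54 at 50 CPM, 585 and 506 at 1 CPM and 328 and 405 at 1.5-fold. With 10 CPM added the basal count was 74, and in the less-cycling cells 211. Membership of the lists moved as well. Of the 125 and 124 genes, 103 and 81 stayed on the lists in thinned cells with the ends taken anew. With R from Krt8 and Krt5 alone, 96 and 82 stayed. Between the ends of GR18 and GR19 edgeR called 1138 genes to the luminal and 1228 to the basal end, DESeq2 280 and 353, and edgeR on thinned cells 674 and 681. Without the library term, the only block that could be fitted, it called 590 and 694. No paired analysis was possible because no label ties a control bulk line to a SOX4KO line. In bulk, edgeR called 479 genes higher and 254 lower in SOX4KO, and 1008 and 678 at a filter of 1 count. Leaving out 1 line gave 30 to 624 higher and 26 to 382 lower, with 93 and 37 without WT1, 30 and 26 without WT3, and 382 lower without M4. Luminal-end genes called higher in bulk numbered 14 with DESeq2, 23 at 1 count and 1 to 13 with 1 line left out (1 without WT1 or WT3, 13 without H7). Those called lower numbered 14, 27 and 0 to 20 (1 without WT1, 0 without WT3, 4 without H7, 20 without H4), and the basal-end genes called higher 3 to 53. Inhba went to -0.012 in the less-cycling cells, which changed its sign. A robust spread and calls with both libraries in 1 direction, both chosen after seeing the data, kept every count within 1.5 times, as did leaving out the well without keratin UMIs. Depth limits genes near the level filter, and the single-cell control is 1 library.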
